A study of Mus musculus with 8 samples.

Results

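The collagens are the fibre-forming and network-forming proteins of the extracellular matrix, and every gene that encodes an alpha chain of one was followed here through the estrous cycle of the mouse uterus. The members are the genes of the count table whose GRCm38 symbol has the form Col, a type number, a and a chain number, and whose biotype is protein coding. They number 44 of 52308 genes. They comprise 11 fibrillar chains, 6 basement membrane chains, 9 FACIT chains (fibril-associated collagens with interrupted triple helices) and 18 others, which form beaded filaments, short-chain networks, anchoring fibrils, multiplexins or membrane-spanning collagens. Of these, 41 had enough counts to be tested, and 36 had a mean of at least 5 CPM in some stage.

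Polyadenylated RNA came from the whole uterus of female ICR mice, an outbred stock, aged 6 to 8 weeks. The stage was read from the cells of a vaginal smear, and proestrus, estrus, metestrus and diestrus have 2 libraries each. The labels name no treatment, allele or surgery, so each stage stands for the natural cycle of intact females. Whether a stage was sampled from separate animals is not stated, so every p reflects the spread among these libraries alone, and that spread may be technical.

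A collagen molecule is a rope of intertwined alpha chains that are hydroxylated, glycosylated and folded in the endoplasmic reticulum, secreted as procollagen, trimmed and crosslinked outside the cell. Fibroblasts of the uterine stroma and smooth muscle cells of the myometrium make the fibrils, whereas epithelium, endothelium and muscle rest on or are wrapped in collagen IV sheets. The uterus swells and regresses in each cycle under estrogen and progesterone, and its matrix is remodelled with it.

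Library totals ran from 17863546 to 21896786 counts. Levels are in CPM, counts relative to a TMM-scaled library size. Changes are log2 fold changes ± SE from an edgeR quasi-likelihood fit to all 8 libraries. Each p is adjusted over the 18114 genes tested by Benjamini-Hochberg, with 0.05 as the threshold. The libraries of diestrus lay farthest apart: the chi-square per degree of freedom between their counts was 105, against 17.1 to 36.8 in the other stages. The 9 smooth muscle markers summed to 18252 CPM in the first diestrus library, to 7365 CPM in the other, and to 8024 to 11355 CPM in the other 6 libraries. Of the 5 cartilage markers, Matn1, Matn3 and Cnmd were at or near 0 in every library, as were the cartilage chains Col2a1 and Col9a1. Of the other two, Acan had 0.207 to 2.13 CPM and, like many chains, was called lower in estrus than in proestrus (-2.52, edgeR adjusted p = 0.0458) and higher in metestrus than in estrus (2.60, 0.0218), while Sox9 had 7.87 to 56.8 CPM and was called in no pair by edgeR.

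Collagen transcripts as a whole were lowest in estrus. The 44 chains summed to 36122 and 41358 CPM in proestrus, 17294 and 11426 CPM in estrus, 37403 and 28045 CPM in metestrus, and 24819 and 26274 CPM in diestrus. Both estrus libraries lay below the other 6, and those of proestrus and metestrus overlapped. In bulk tissue, fewer cells of a type and less RNA per cell cannot be told apart. The sum of the 6 basement membrane chains stayed between 2041 and 2890 CPM in all libraries, so most of the difference lay in the fibrillar chains and collagen VI.

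Across the 4 stages 25 of 41 chains changed, beside 39.1% of all genes tested. The stage with the lowest mean was estrus for 16 of those 25, proestrus for 4, diestrus for 3 and metestrus for 2, whereas estrus was lowest for 30% of all changed genes. The stage with the highest mean was proestrus for 12, diestrus for 8, metestrus for 4 and estrus for 1 (Col17a1), beside 23.9%, 17.2%, 22.8% and 36% of all changed genes. For 14 of the 41 chains both estrus libraries lay below all others, a pattern that 15.0% of all tested genes had. The reverse, both estrus libraries above all others, was found for Col17a1 alone, beside 16.6% of all genes. Without any single proestrus, estrus or metestrus library fewer of all genes were called in every comparison, and without either diestrus library more were. Counts of chains from such fits are to be read beside that shift. Without proestrus library 1 or 2 the chains changed across stages numbered 13 and 13, without estrus library 2 or metestrus library 1 14 and 14, and without metestrus library 2 16.

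**Figure D1:**
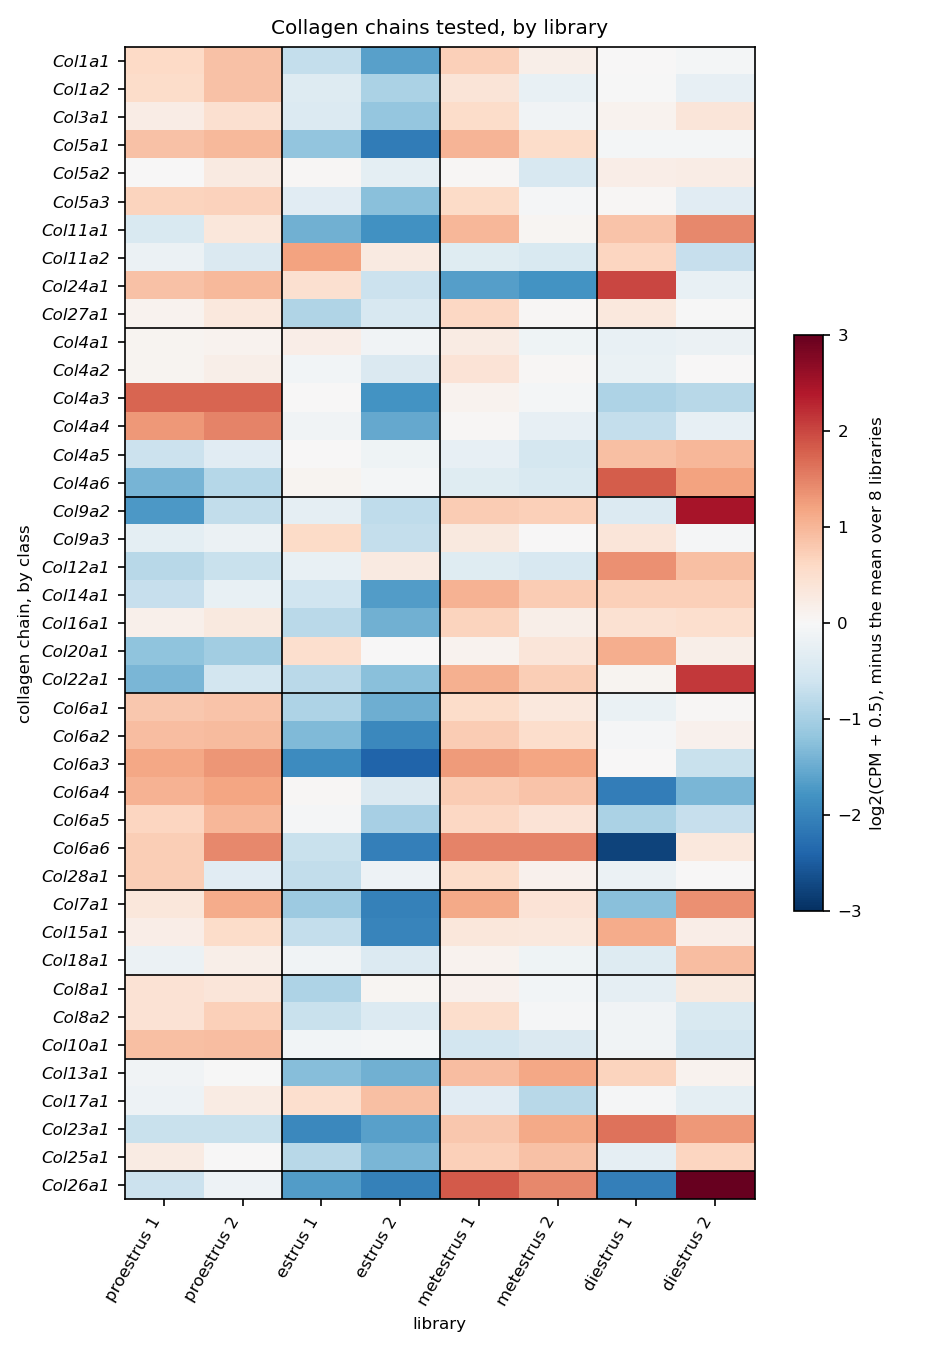
Level of each of the 41 tested chains (vertical axis, by class) in each of the 8 libraries (horizontal axis), as log2(CPM + 0.5) minus the chain's mean over the libraries, with colours capped at 3 on either side. The estrus columns are mostly blue for fibrillar chains, collagen VI and the transmembrane chains other than Col17a1, and the diestrus columns differ between libraries for Col26a1, Col6a6, Col7a1 and Col24a1.

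From proestrus to estrus 15 chains fell, beside 6.94% of all genes lower in estrus, and 2 rose (Col20a1 and Col4a6), beside 8.12% of all genes higher in estrus. DESeq2 called 7 fibrillar, 2 basement membrane, 1 FACIT and 10 other chains lower in estrus, and 1 basement membrane and 2 FACIT chains higher. Of all genes it called 3593 in this pair, against 2727 in edgeR. The median log2 fold change in edgeR was -1.21 over the 41 chains and 0.007 over all genes. From estrus to metestrus 16 chains rose, beside 16.7% of all genes higher in metestrus, and Col17a1 alone fell, beside 19.5% of all genes lower there. The median was 1.01 over the chains and -0.046 over all genes. These comparisons share the estrus libraries, so the fall and the return are not independent measurements. In the fits without a library given next, the calls among all genes shifted the same way. The number of chains that fell into estrus was 4 without proestrus library 1 or 2, 9 and 5 without estrus library 1 and 2, 10 without either metestrus library, and 24 without either diestrus library. The number that rose into metestrus was 9 without estrus library 2 or metestrus library 1.

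Between estrus and diestrus, 16 chains were lower in estrus, beside 9.97% of all genes, and Col6a4 alone was higher, beside 13.9%. The former number was 8 without estrus library 2. Between proestrus and diestrus, 9 chains were higher in proestrus, beside 12.0% of all genes, and 6 were lower, beside 10.4%. Leaving out proestrus library 1 or 2 turned the 9 into 1 and 2, without either metestrus library 4, and without diestrus library 1 5. Between metestrus and proestrus, 4 chains were higher in metestrus, beside 6.68% of all genes, and 2 were lower, beside 10.3%. The 4 became 1 without proestrus library 1 or 2 or metestrus library 1, 0 without metestrus library 2 (edgeR; 6 at an unadjusted p under 0.05) and 8 without either diestrus library. DESeq2 with all libraries called 7 higher. Of all genes it called 3916 in either direction in this pair, against 3067 in the full edgeR fit. From metestrus to diestrus 3 chains rose, beside 0.282% of all genes, and Col6a4 alone fell, beside 0.226%. All 4 of these last calls ended when any proestrus, estrus or metestrus library was left out of the edgeR fit. At an unadjusted p under 0.05 the full fit had 5 chains higher and 5 lower in diestrus than in metestrus. DESeq2 called 4 higher (Col4a5, Col4a6, Col12a1 and Col24a1) and 4 lower (Col5a1, Col6a3, Col6a4 and Col6a5). Of all genes DESeq2 called 948 in this pair in either direction, against 92 in the full edgeR fit. The share of all genes at an unadjusted p is not given here. The full fit called 4317 of all genes between estrus and diestrus and 4050 between proestrus and diestrus. Fits to only the 4 libraries of a pair called 1939 and 1130. Those smaller fits called 8 chains lower in estrus than in diestrus and 5 higher in proestrus than in diestrus. Col5a1, Col6a1, Col6a4, Col12a1 and Col14a1 did not pass there between estrus and diestrus, nor Col6a1, Col6a2, Col6a3 and Col20a1 between proestrus and diestrus (edgeR adjusted p 0.0557 to 0.0860).

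**Figure D2:**
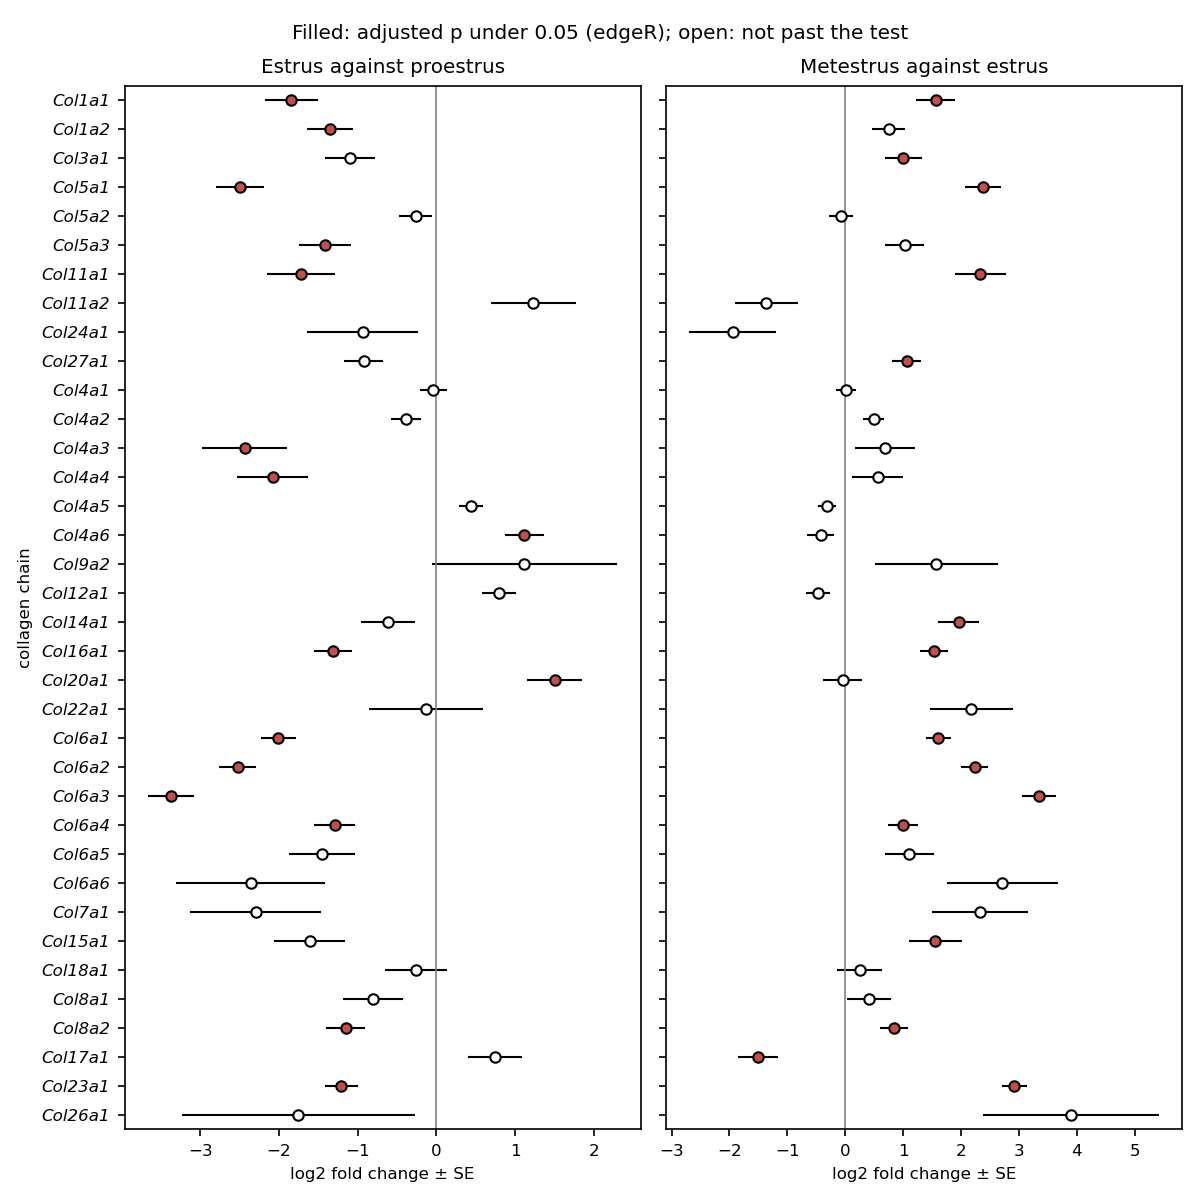
Log2 fold change ± SE (horizontal axis) of the 36 chains with a mean of at least 5 CPM in some stage (vertical axis), for estrus against proestrus on the left and metestrus against estrus on the right. Filled points passed adjusted p under 0.05 in edgeR. Most filled points lie left of 0 on the left and right of 0 on the right, and Col5a2, Col4a1 and Col18a1 lie near 0 in both.

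The fibrillar chains assemble into the banded fibres that carry tension. Of the 10 tested, 5 fell from proestrus to estrus, beside 6.94% of all genes. None rose by edgeR, at an unadjusted p under 0.05 (0 chains) or by DESeq2 (0), beside 8.12% of all genes higher in estrus by edgeR. Collagen I is built from Col1a1 (ENSMUSG00000001506, chr11:94936224-94953042, plus strand, GRCm38) and Col1a2. Col1a1 had 5039 and 6133 CPM in proestrus, 2036 and 1080 CPM in estrus, 5482 and 3726 CPM in metestrus, and 3377 and 3188 CPM in diestrus. Every estrus value lay below every other, and the proestrus and metestrus values overlapped. Col1a1 fell by 1.84 ± 0.34 on the log2 scale into estrus (edgeR adjusted p = 0.0185) and rose by 1.56 ± 0.33 into metestrus (0.0138). The fall did not pass without proestrus library 1 or 2 or estrus library 2 (range 0.0570 to 0.0903), nor the rise without estrus library 2 or metestrus library 1 (0.0507 and 0.0709).

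Col1a2, its partner chain, had 5695 and 7143 CPM in proestrus, 3016 and 2012 CPM in estrus, 5117 and 3353 CPM in metestrus, and 3911 and 3313 CPM in diestrus. It too was lowest in estrus, but metestrus library 2 was near the diestrus values. Its fall of 1.35 ± 0.29 into estrus passed (edgeR adjusted p = 0.0279), though not when a proestrus or estrus library was left out (0.0681 to 0.131), and its change into metestrus of 0.75 ± 0.29 did not (0.0802). DESeq2 called the rise of Col1a2 into metestrus (0.78, adjusted p = 0.0181). The ratio of Col1a1 to Col1a2, per kb of transcript and within a library, was 0.798 and 0.774 for proestrus, 0.609 and 0.484 for estrus, 0.966 and 1.00 for metestrus, and 0.779 and 0.868 for diestrus. Both chains were thus low in estrus, with Col1a1 the lower relative to proestrus.

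Col3a1, the collagen III chain of pliable tissues, had 6471 and 7765 CPM in proestrus and 4179 and 2494 CPM in estrus. It had 8164 and 5178 CPM in metestrus and 5991 and 7178 CPM in diestrus. Both estrus values were below all others, but the fold change into estrus, -1.09 ± 0.32, did not pass in edgeR (adjusted p = 0.0638). DESeq2 called this fall (-1.11, adjusted p = 0.00265). The rise of 1.00 ± 0.32 into metestrus was just past the threshold (0.0487) and ended without any single proestrus, estrus or metestrus library (0.0531 to 0.225).

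Collagen V forms the core on which collagen I fibrils grow, and its chains Col5a1 (ENSMUSG00000026837, chr2:27886425-28039514, plus strand) and Col5a2 went separate ways. Col5a1 had 984 and 1049 CPM in proestrus, 235 and 126 CPM in estrus, 1083 and 788 CPM in metestrus, and 516 and 518 CPM in diestrus. Estrus was lowest, diestrus intermediate, and the other stages overlapped at the top. Col5a1 fell by 2.49 ± 0.31 into estrus (edgeR adjusted p = 0.0067), rose by 2.37 ± 0.31 into metestrus (0.00328), and was lower in estrus than in diestrus by 1.52 ± 0.30 (0.0151). Those calls were also made in all 8 fits that left out a library. The change of Col5a1 between proestrus and diestrus, 0.98 ± 0.30, did not pass in edgeR (adjusted p = 0.0588). DESeq2 called it (0.98, adjusted p = 0.00569).

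Col5a2 had 588 and 694 CPM in proestrus, 591 and 476 CPM in estrus, 599 and 413 CPM in metestrus, and 663 and 681 CPM in diestrus. The stages overlapped, and Col5a2 did not pass across them (edgeR adjusted p = 0.304), with a change of -0.27 ± 0.21 into estrus (0.413). Within a library the ratio of Col5a1 to Col5a2 per kb was 1.32 and 1.19 for proestrus, 0.314 and 0.209 for estrus, 1.43 and 1.5 for metestrus, and 0.614 and 0.6 for diestrus. This ratio is free of library scaling, and its estrus values lie below the other 6. Col5a2 lies next to Col3a1 on chromosome 1, tail to tail at a distance of 24614 bp. Col5a3, the third chain of the type, had 139 and 141 CPM in proestrus and 68.9 and 36.0 CPM in estrus, and 68.8 to 129 CPM in the later stages. It fell by 1.41 ± 0.34 into estrus (0.0371), a call that ended without any single proestrus or metestrus library or without estrus library 2 (0.0566 to 0.137).

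Col11a1, the collagen XI chain that takes the place of collagen V in cartilage fibrils, had 10.8 and 19.1 CPM in proestrus, 5.2 and 3.87 CPM in estrus, 30.2 and 15.6 CPM in metestrus, and 27.5 and 41.4 CPM in diestrus. Estrus was lowest and diestrus mostly highest. It rose by 2.33 ± 0.44 into metestrus (edgeR adjusted p = 0.00929; 0.0526 and 0.0617 without estrus library 1 and 2) and was lower in estrus than in diestrus by 2.92 ± 0.45 (0.00699; 0.0546 without estrus library 2). Its fall into estrus, 1.72 ± 0.43, passed in the full fit (0.0441) but in none of the fits without a proestrus, estrus or metestrus library (0.0548 to 0.200). Col27a1, a fibrillar chain of cartilage and developing tissue, had 16.6 and 22.4 CPM in estrus and 31.7 to 48.8 CPM elsewhere. Its change into estrus, -0.92 ± 0.25, did not pass in edgeR (adjusted p = 0.0513), whereas DESeq2 called it (-0.94, adjusted p = 0.00788). It rose into metestrus by 1.06 ± 0.25 (0.0179), not past the threshold without estrus library 1 (0.101) or metestrus library 1 (0.0888).

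The remaining fibrillar chains followed other courses. Col24a1 had 15.8 and 17.0 CPM in proestrus, 12.0 and 5.21 CPM in estrus, 2.37 and 2.10 CPM in metestrus, and 35.2 and 7.16 CPM in diestrus. It was lowest in metestrus and was the fibrillar chain called lower there than in proestrus, by 2.88 ± 0.76 (edgeR adjusted p = 0.0469), a call absent without any single proestrus, estrus or metestrus library (0.0666 to 0.229). Its high diestrus mean rests on library 1, and the rise from metestrus was called by DESeq2 (3.23, adjusted p = 7.25e-05) but not by edgeR (0.145). Col11a2 ranged from 2.32 to 10.1 CPM and did not pass in any pair by edgeR. Col2a1, the main chain of cartilage, had at most 0.155 CPM and was not tested.

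**Figure D3:**
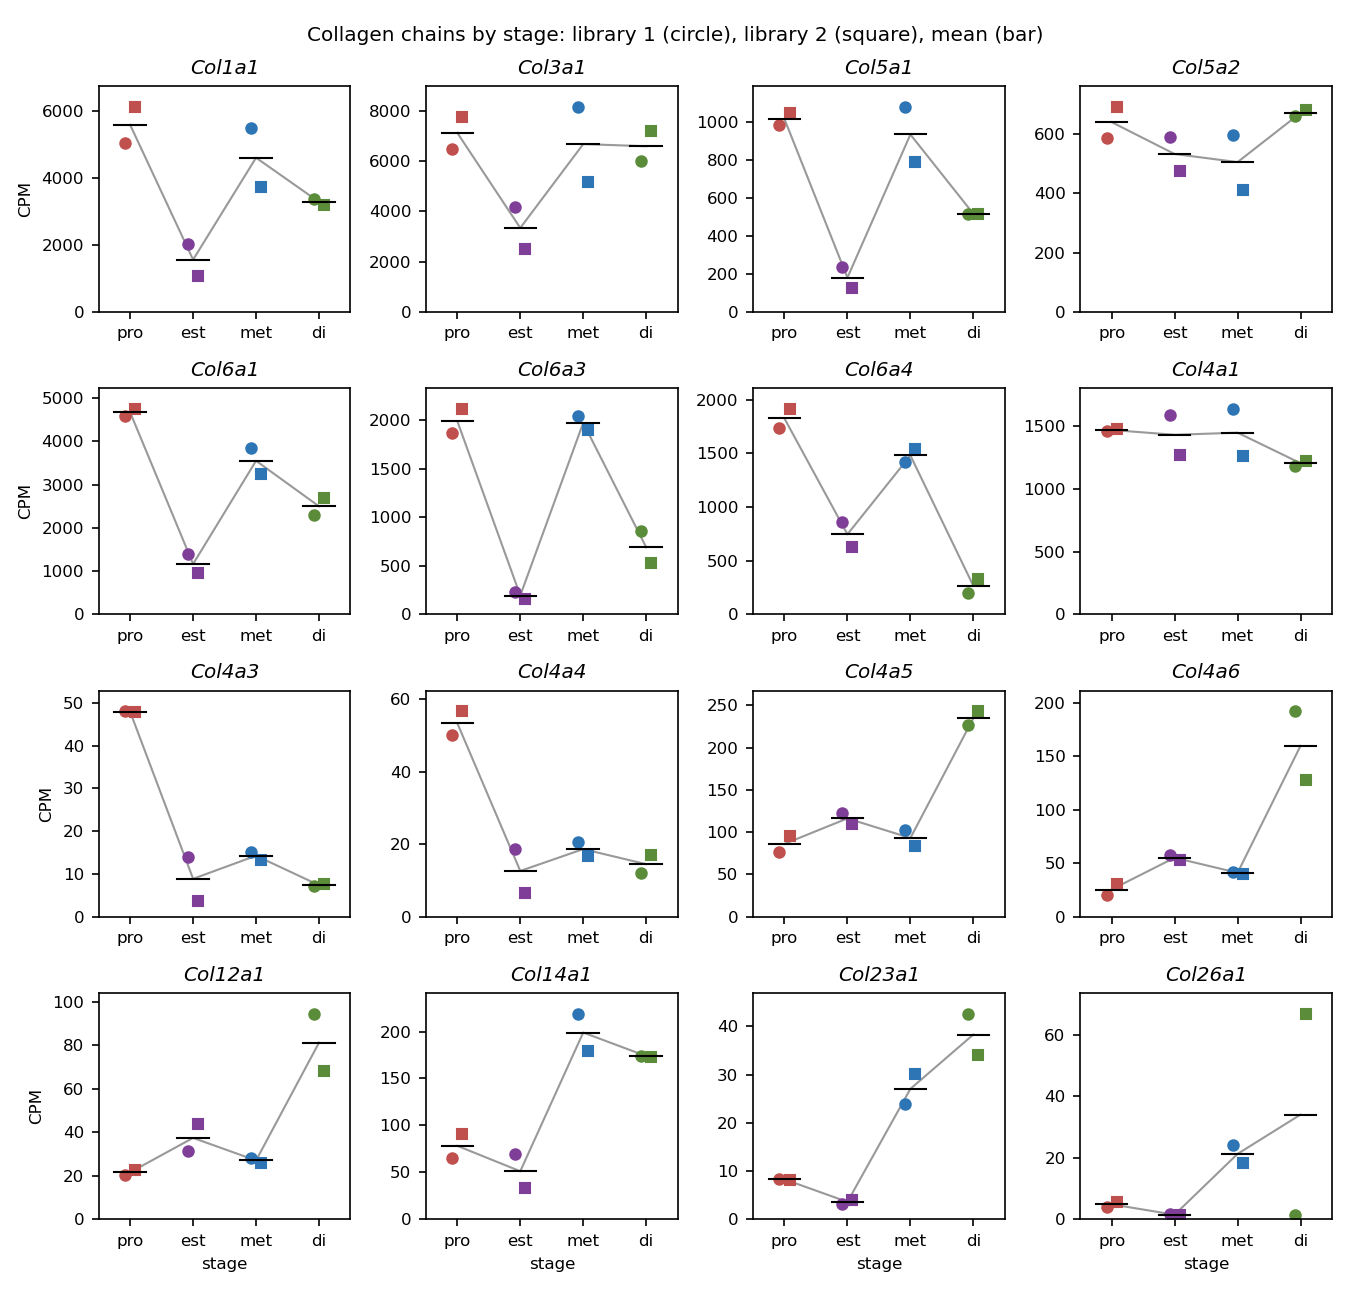
CPM (vertical axes, from 0) of 16 chains by stage (pro, proestrus; est, estrus; met, metestrus; di, diestrus), with library 1 as a circle, library 2 as a square and the mean as a bar. Col1a1, Col5a1, Col6a1 and Col6a3 drop in estrus and return in metestrus, Col4a3 and Col4a4 are high in proestrus, and Col4a5, Col4a6 and Col12a1 are high in both diestrus libraries.

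Collagen VI, which forms beaded filaments around cells and between fibres and basement membranes, held the strongest fall. Its classic chains Col6a1, Col6a2 and Col6a3 summed to 11409 and 11931 CPM in proestrus, 2665 and 1788 CPM in estrus, 10319 and 8906 CPM in metestrus, and 5705 and 6105 CPM in diestrus. The 4 stages did not overlap for this sum. Col6a1 and Col6a2 are neighbours on the minus strand of chromosome 10, 85161 bp apart, and Col6a3 lies on chromosome 1.

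Col6a1 had 4594 and 4752 CPM in proestrus, 1383 and 943 CPM in estrus, 3849 and 3254 CPM in metestrus, and 2294 and 2702 CPM in diestrus. Col6a2 had 4950 and 5064 CPM in proestrus, 1054 and 686 CPM in estrus, 4429 and 3749 CPM in metestrus, and 2558 and 2877 CPM in diestrus. Both chains stood in the order proestrus, metestrus, diestrus, estrus without overlap. Into estrus, Col6a1 fell by 2.01 ± 0.22 (edgeR adjusted p = 0.00502) and Col6a2 by 2.52 ± 0.24 (0.0034). Into metestrus they rose by 1.61 ± 0.22 (0.00364) and 2.23 ± 0.23 (0.00199). All 4 of these calls were made in each of the 8 fits without a library.

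Col6a3 (ENSMUSG00000048126, chr1:90765923-90843971, minus strand) encodes the longest of these chains. It had 1864 and 2115 CPM in proestrus, 227 and 158 CPM in estrus, 2041 and 1903 CPM in metestrus, and 853 and 526 CPM in diestrus. Its proestrus and metestrus values overlapped, diestrus lay below them, and estrus lay lowest. DESeq2 called its fall from metestrus into diestrus (-1.535, adjusted p = 1.99e-06), which edgeR did not call. No member called from proestrus to estrus fell by more than Col6a3, by 3.37 ± 0.29 (edgeR adjusted p = 0.00312). Its rise into metestrus was 3.35 ± 0.29 (0.00147). Both calls were made in all 8 fits without a library. Per kb and within a library, the ratio of Col6a3 to Col6a1 was 0.185 and 0.203 for proestrus, 0.0748 and 0.0765 for estrus, 0.242 and 0.266 for metestrus, and 0.169 and 0.0886 for diestrus. The trimer partners therefore did not keep a fixed transcript ratio.

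Col6a1, Col6a2 and Col6a3 were also higher in proestrus than in diestrus, by 0.90 ± 0.22 (edgeR adjusted p = 0.0284), 0.88 ± 0.23 (0.0344) and 1.53 ± 0.27 (0.0114). The calls of Col6a1 and Col6a2 ended without any single proestrus or metestrus library and without diestrus library 1 (0.0580 to 0.137), and that of Col6a3 without proestrus library 1 (0.0511).

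Col6a4, Col6a5 and Col6a6 encode chains that can stand in for Col6a3 in the trimer. They lie in a row on the minus strand of chromosome 9. The gaps are 28810 bp between Col6a4 and Col6a5 and 27917 bp between Col6a5 and Col6a6. Col6a4 (ENSMUSG00000032572, chr9:105989454-106096783) had its lowest level in diestrus, not in estrus. It had 1736 and 1914 CPM in proestrus, 865 and 626 CPM in estrus, 1424 and 1537 CPM in metestrus, and 201 and 328 CPM in diestrus, and no stage overlapped another. Proestrus exceeded diestrus by 2.79 ± 0.28 (edgeR adjusted p = 0.00205), in all 8 fits without a library. It was the only chain called higher in estrus than in diestrus, by 1.5 ± 0.26 (0.0109; 0.0695 without estrus library 1). It fell by 1.29 ± 0.26 into estrus (0.0243), rose by 0.99 ± 0.26 into metestrus (0.0266) and fell by 2.48 ± 0.27 into diestrus (0.0314). The first of these ended without any single proestrus, estrus or metestrus library (0.0585 to 0.125), the rise without any single estrus or metestrus library (0.0596 to 0.136), and the last without any single proestrus, estrus or metestrus library (0.0705 to 0.246). Exons of Col6a4 share 127 bp and 162 bp with genes of the opposite strand, and whether counting used strand is not given in the sources used here.

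Per kb, the ratio of Col6a4 to Col6a1 was 0.210 and 0.224 for proestrus, 0.348 and 0.369 for estrus, 0.206 and 0.263 for metestrus, and 0.0488 and 0.0674 for diestrus. The ratio was thus highest in estrus and lowest in diestrus. Col6a5 was scarce, with 5.08 and 6.70 CPM in proestrus, 3.0 and 1.29 CPM in estrus, 5.0 and 4.28 CPM in metestrus, and 1.35 and 1.72 CPM in diestrus, and was called higher in proestrus than in diestrus (1.94 ± 0.43, edgeR adjusted p = 0.0228). That call ended without any single proestrus or metestrus library and without diestrus library 1 (0.0517 to 0.0938). Col6a6 had 90.8 to 153 CPM in proestrus and metestrus, 34.1 and 12.6 CPM in estrus, and 7.42 and 68.0 CPM in diestrus. It passed in no pair in the edgeR fit, whereas DESeq2 called it higher in metestrus than in estrus (2.74, adjusted p = 0.0358). Its diestrus values lay on either side of those of estrus. Col28a1, a related chain with von Willebrand factor A domains, stayed between 0.750 and 2.97 CPM.

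The start-site windows of Col6a3 and Col6a4 are shown because these chains, alternatives in the same trimer, reached their lowest levels in different stages. Each window holds 250 bases before and 50 after the RefSeq start on GRCm38.p6, read 5′ to 3′ on the gene's own strand, here chr1:90843922-90844221 (minus) for Col6a3 and chr9:106096642-106096941 (minus) for Col6a4. Capitals mark CCAAT and GGGCGG, or their reverse complements ATTGG and CCGCCC.
Col6a3: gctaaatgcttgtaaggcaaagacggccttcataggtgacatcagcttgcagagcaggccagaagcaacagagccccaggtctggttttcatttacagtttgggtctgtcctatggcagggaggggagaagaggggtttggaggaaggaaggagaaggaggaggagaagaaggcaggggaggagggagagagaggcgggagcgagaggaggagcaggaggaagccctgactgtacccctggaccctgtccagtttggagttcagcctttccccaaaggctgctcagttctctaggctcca
Col6a4: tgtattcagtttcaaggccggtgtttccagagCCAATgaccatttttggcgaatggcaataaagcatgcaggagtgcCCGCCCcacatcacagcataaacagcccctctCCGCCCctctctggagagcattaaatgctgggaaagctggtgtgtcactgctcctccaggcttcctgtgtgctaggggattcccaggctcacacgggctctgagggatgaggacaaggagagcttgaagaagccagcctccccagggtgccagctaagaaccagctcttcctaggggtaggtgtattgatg
Col6a4 holds 1 CCAAT and 2 GGGCGG matches and Col6a3 none of the motifs searched. A match is a description of the letters, not a bound site.

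Windows were found for 35 of the 44 chains, 38 windows in all, some chains having more than 1 start. Both strands were searched for motifs that do not contain one another. TATAAA was found in 13.2% of the chain windows and 13.6% of the 32851 windows of all genes, CCAAT in 34.2% and 37.4%, and GGGCGG in 60.5% and 35.7%. TGANTCA, the AP-1 motif, was found in 2.63% and 7.81%. The full palindromes of the estrogen response element and of the progesterone response element were in 0 of 38 chain windows, and in 0.07% and 0.00913% of all windows. The latter counts speak only of these letters in these windows.

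The basement membrane chains, all of collagen IV, fell into 3 pairs of genes whose starts lie next to each other. Collagen IV forms the sheet-like network under epithelia and around muscle cells and vessels. Its 6 genes lie head to head in pairs: Col4a1 with Col4a2 on chromosome 8, where their first exons overlap by 22 bp, Col4a3 with Col4a4 on chromosome 1, 71 bp apart, and Col4a5 with Col4a6 on the X chromosome, 1308 bp apart. Start windows are shown because the genes of a pair start close together. The windows of Col4a5 and Col4a6 do not overlap. Col4a2 is at chr8:11312555-11312854 (plus), Col4a4 at chr1:82586800-82587099 (minus), Col4a5 at chrX:141475169-141475468 (plus) and Col4a6 at chrX:141474027-141474326 (minus), with build, length and capitals as for Col6a3.
Col4a2: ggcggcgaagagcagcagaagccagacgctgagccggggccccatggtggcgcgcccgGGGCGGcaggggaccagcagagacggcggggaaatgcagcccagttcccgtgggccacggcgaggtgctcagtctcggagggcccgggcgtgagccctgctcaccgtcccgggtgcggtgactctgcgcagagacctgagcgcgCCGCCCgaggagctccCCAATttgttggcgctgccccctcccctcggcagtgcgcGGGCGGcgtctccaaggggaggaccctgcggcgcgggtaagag
Col4a4: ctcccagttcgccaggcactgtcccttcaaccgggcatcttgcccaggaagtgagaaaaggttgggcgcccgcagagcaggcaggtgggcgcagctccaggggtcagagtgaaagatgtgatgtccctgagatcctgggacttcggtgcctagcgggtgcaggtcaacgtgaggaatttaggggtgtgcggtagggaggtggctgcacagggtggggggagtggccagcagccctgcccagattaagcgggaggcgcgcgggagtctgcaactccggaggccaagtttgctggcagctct
Col4a5: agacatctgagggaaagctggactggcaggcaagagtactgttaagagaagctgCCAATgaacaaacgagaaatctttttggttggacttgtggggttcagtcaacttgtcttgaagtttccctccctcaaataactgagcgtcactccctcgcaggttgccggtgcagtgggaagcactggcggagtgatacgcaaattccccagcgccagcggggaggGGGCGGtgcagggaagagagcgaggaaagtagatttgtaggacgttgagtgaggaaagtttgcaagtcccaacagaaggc
Col4a6: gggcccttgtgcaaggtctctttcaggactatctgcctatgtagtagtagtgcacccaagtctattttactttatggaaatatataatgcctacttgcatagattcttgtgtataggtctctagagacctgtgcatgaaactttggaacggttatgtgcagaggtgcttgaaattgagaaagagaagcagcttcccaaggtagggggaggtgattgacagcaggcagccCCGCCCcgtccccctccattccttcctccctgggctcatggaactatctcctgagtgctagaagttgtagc
The Col4a2 window holds the starts of both Col4a1 and Col4a2, with 1 CCAAT and 3 GGGCGG matches, and 73.7% G and C. The Col4a4 window also holds the annotated start of Col4a3, at position 82586921, and none of the motifs. Col4a5 holds 1 CCAAT and 1 GGGCGG match, and Col4a6 1 GGGCGG match.

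Col4a1 and Col4a2 make the common collagen IV of nearly all basement membranes, and neither passed across the stages in edgeR. Col4a1 had 1467 and 1477 CPM in proestrus, 1591 and 1276 CPM in estrus, 1640 and 1261 CPM in metestrus, and 1187 and 1226 CPM in diestrus. The diestrus values lay below the rest and the other stages overlapped. The change into estrus was -0.04 ± 0.17 (edgeR adjusted p = 0.901), and across the stages the adjusted p was 0.466. Col4a2 had 592 to 1070 CPM, changed by -0.39 ± 0.18 into estrus (0.198), and had an adjusted p of 0.180 across the stages. DESeq2 called Col4a2 higher in metestrus than in estrus (0.52, adjusted p = 0.0337). Per kb and within a library, Col4a1 to Col4a2 stood at 2.06 and 2.1 in estrus and at 1.49 to 1.68 in the other 6 libraries.

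Col4a3 and Col4a4, which with Col4a5 form the network of the kidney glomerulus and some epithelia, were highest in proestrus. Col4a3 (ENSMUSG00000079465, chr1:82586921-82722059, plus strand) had 48.0 and 47.8 CPM in proestrus, 14.1 and 3.67 CPM in estrus, 15.2 and 13.4 CPM in metestrus, and 7.06 and 7.67 CPM in diestrus. Col4a4 (minus strand, ending at 82586849) had 50.1 and 56.6 CPM in proestrus, 18.7 and 6.56 CPM in estrus, 20.6 and 16.7 CPM in metestrus, and 12.1 and 16.9 CPM in diestrus. For both chains the proestrus libraries lay above all others, and the estrus values lay on either side of those of diestrus. Into estrus Col4a3 fell by 2.43 ± 0.54 (edgeR adjusted p = 0.0305) and Col4a4 fell by 2.08 ± 0.46 (0.0300). These calls ended without any single proestrus or metestrus library, and that of Col4a4 also without estrus library 2 (0.0599 to 0.125 over both). Against diestrus, proestrus was higher by 2.70 ± 0.54 for Col4a3 (0.0167) and 1.88 ± 0.45 for Col4a4 (0.0288). The Col4a3 call ended without proestrus library 1 or 2 (0.0760 and 0.0543), and the Col4a4 call also without either metestrus library or diestrus library 1 (0.0596 to 0.106). Exons of Col4a3 share 563 bp with C430014B12Rik on the opposite strand, so its reads are uncertain if counting ignored strand.

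Summed epithelial markers, 7 genes, moved with the proestrus level of these chains in part: they had 5467 and 4610 CPM in proestrus, 3678 and 3131 CPM in estrus, 1235 and 1180 CPM in metestrus, and 907 and 1066 CPM in diestrus. None of the 7 was at 0, and from proestrus to estrus 1 of the 7 fell and 1 rose, beside 6.94% and 8.12% of all genes. By edgeR 5 were higher and 0 lower in proestrus than in diestrus, beside 12.0% and 10.4%. In metestrus 0 were higher and 6 lower than in proestrus, beside 6.68% and 10.3%. Their part in the result for Col4a3 and Col4a4 was not tested.

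Col4a5 and Col4a6, the third pair, typical of smooth muscle and epithelial basement membranes, were highest in diestrus. Col4a5 (ENSMUSG00000031274, chrX:141475385-141689234, plus strand) had 76.9 and 95.2 CPM in proestrus, 122 and 110 CPM in estrus, 102 and 83.9 CPM in metestrus, and 227 and 243 CPM in diestrus. Col4a6 (ENSMUSG00000031273, chrX:141165403-141474076, minus strand) had 20.6 and 30.2 CPM in proestrus, 57.5 and 52.7 CPM in estrus, 42.2 and 39.8 CPM in metestrus, and 192 and 127 CPM in diestrus. Both diestrus libraries lay above the other 6 for either chain. Proestrus was lower than diestrus by 1.45 ± 0.16 for Col4a5 (edgeR adjusted p = 0.00264) and by 2.65 ± 0.25 for Col4a6 (0.00193), calls that were made in all 8 fits without a library. The summed smooth muscle markers were highest in diestrus library 1 and lowest in diestrus library 2. The 6 endothelial markers summed to 786.5 and 576 CPM in diestrus and 409 to 527 CPM in the other stages, with none at 0. Of these 6, Kdr and Emcn were called lower in proestrus than in diestrus, beside 10.4% of all genes, and lower in estrus than in diestrus, beside 9.97%. The other members of that list were not called in either pair by edgeR. The part of muscle and endothelial markers in the diestrus level of these chains, and of Col12a1 given later, was not tested. Estrus was lower than diestrus by 1.01 ± 0.15 for Col4a5 (0.00687; 0.0519 without estrus library 2) and by 1.53 ± 0.24 for Col4a6 (0.00775; 0.0535 and 0.0570 without estrus library 1 and 2).

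From metestrus to diestrus Col4a5 rose by 1.33 ± 0.15 (edgeR adjusted p = 0.0340) and Col4a6 by 1.96 ± 0.25 (0.0361). Both calls ended without any single proestrus, estrus or metestrus library, with adjusted p from 0.0718 to 0.345. Col4a6 was 1 of the 2 members that rose into estrus, by 1.12 ± 0.24 (0.0298), which ended without any single proestrus, estrus or metestrus library (0.0619 to 0.144). Per kb and within a library, Col4a5 to Col4a1 stood at 0.0530 to 0.0874 outside diestrus and at 0.193 and 0.200 in diestrus. Col4a3 to Col4a5 fell from 0.478 and 0.384 in proestrus to 0.0238 and 0.0241 in diestrus. The makeup of collagen IV transcripts thus differed between stages. Col4a1 and Col4a2 hold most of the summed CPM of the class, so that sum says little about the scarcer chains.

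**Figure D4:**
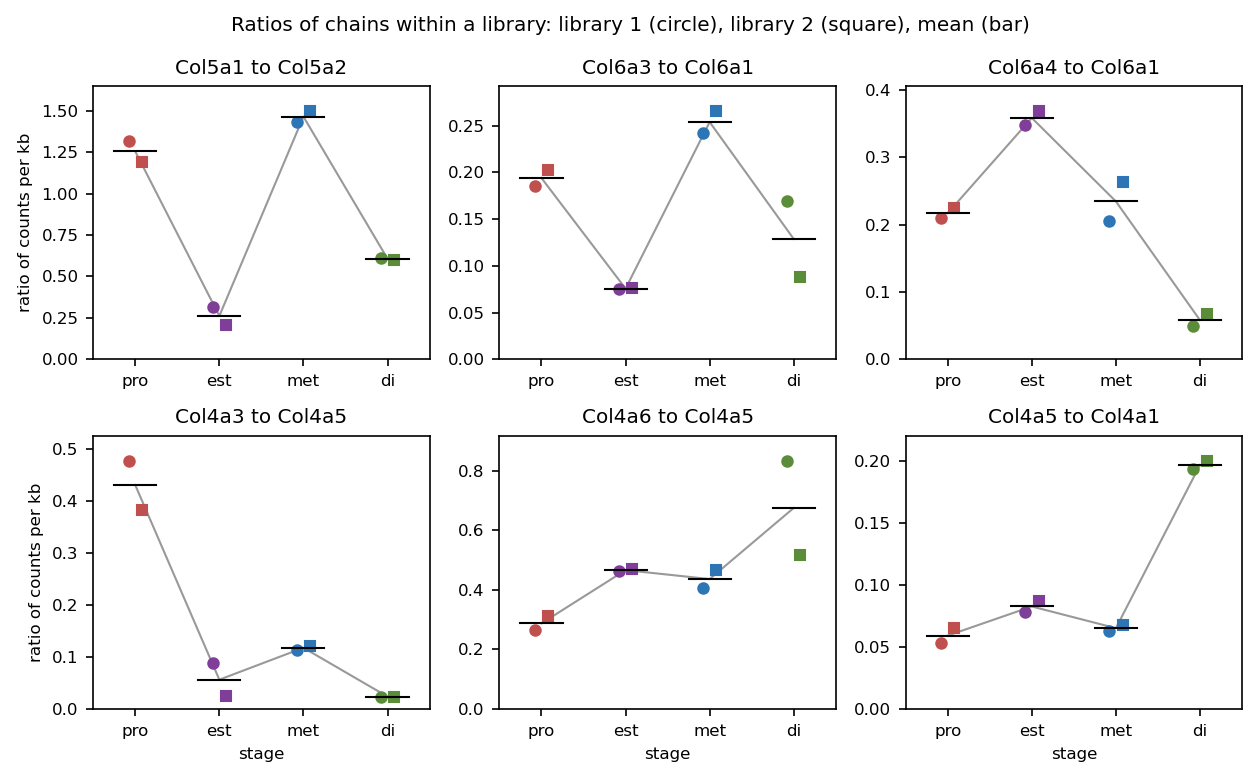
Ratios of chain counts per kb of transcript within each library (vertical axes, from 0) by stage, abbreviated as in the plot of CPM by stage, with circles for library 1, squares for library 2 and bars for means. Col5a1 to Col5a2 and Col6a3 to Col6a1 are lowest in estrus, Col6a4 to Col6a1 is lowest in diestrus, and Col4a5 to Col4a1 is highest there.

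The FACIT chains sit on the surface of fibrils and link them to their surroundings. Of the 9, 7 were tested, and they did not share a course. Col12a1, found on collagen I fibrils of tissues under load, had 20.3 and 22.8 CPM in proestrus, 31.2 and 43.6 CPM in estrus, 28.0 and 26.0 CPM in metestrus, and 94.6 and 68.0 CPM in diestrus. Diestrus stood above the other 6 libraries. The rise into estrus, 0.795 ± 0.216, did not pass in edgeR (adjusted p = 0.0532), whereas DESeq2 called it (0.777, adjusted p = 0.0173). Proestrus was lower than diestrus by 1.92 ± 0.22 (edgeR adjusted p = 0.00313, in all 8 fits without a library). Estrus was lower than diestrus by 1.12 ± 0.21 (0.0138; 0.0778 without estrus library 1), and the rise of 1.59 ± 0.22 into diestrus from metestrus (0.0454) ended without any single proestrus, estrus or metestrus library (0.0936 to 0.394).

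Col14a1, a FACIT of mature collagen I fibrils, was low in the first stages and high in the later ones. It had 65.3 and 90.9 CPM in proestrus, 69.4 and 32.6 CPM in estrus, 219 and 179 CPM in metestrus, and 174 and 173 CPM in diestrus. It rose by 1.96 ± 0.35 into metestrus (edgeR adjusted p = 0.00814) and was lower in estrus than in diestrus by 1.77 ± 0.35 (0.0153), both in all 8 fits without a library. It was higher in metestrus than in proestrus by 1.35 ± 0.35 (0.0428), which ended without any single library of those stages (0.0831 to 0.231).

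Col16a1, a FACIT of fibrillin-rich and collagen II fibrils, kept to the course of the fibrillar chains. It had 368 and 409 CPM in proestrus, 191 and 122 CPM in estrus, 526 and 378 CPM in metestrus, and 455 and 476 CPM in diestrus. Estrus lay below the rest. It fell by 1.31 ± 0.25 into estrus (edgeR adjusted p = 0.0203; 0.0651 to 0.101 when proestrus library 1 or 2 or estrus library 2 was left out) and rose by 1.53 ± 0.25 into metestrus (0.00595, in all 8 fits without a library).

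Col20a1 had 4.05 and 4.62 CPM in proestrus, 14.4 and 10.1 CPM in estrus, 10.9 and 13.0 CPM in metestrus, and 22.1 and 11.5 CPM in diestrus. Proestrus was lowest. It was the largest called rise into estrus among the chains, by 1.5 ± 0.35 (edgeR adjusted p = 0.0362), although the call ended without any single proestrus, estrus or metestrus library (0.0725 to 0.171). Col22a1, a chain of tissue junctions such as that of muscle and tendon, had 1.33 to 2.73 CPM in proestrus and estrus, 9.42 and 7.36 CPM in metestrus, and 4.50 and 20.02 CPM in diestrus. It was called lower in proestrus and in estrus than in diestrus, by 2.59 ± 0.72 (0.0457) and 2.72 ± 0.73 (0.0384). Of the fits without a library, only that without diestrus library 1 kept either call, with 0.0789 to 0.222 in the others for proestrus and 0.05 to 0.179 for estrus. Col9a2 and Col9a3 ranged from 0.154 to 11.6 CPM and passed in no pair in edgeR. DESeq2 called Col9a2 lower in proestrus (adjusted p = 0.00219) and in estrus (0.0374) than in diestrus, and higher in metestrus than in proestrus (0.04). Its diestrus values were 1.125 and 11.55 CPM, so the high diestrus mean rests on library 2. In proestrus Col9a2 had 3 and 16 counts. Col9a1 and Col19a1 had at most 0.413 CPM and were not tested.

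Among the transmembrane collagens, Col23a1 (ENSMUSG00000063564, chr11:51289920-51583918, plus strand) had the smallest p of all members across the stages (edgeR adjusted p = 0.00106). It had 8.31 and 8.19 CPM in proestrus, 3.15 and 3.98 CPM in estrus, 23.8 and 30.2 CPM in metestrus, and 42.6 and 34.0 CPM in diestrus. No stage overlapped another. It rose by 2.92 ± 0.21 into metestrus (0.000977), was lower in estrus than in diestrus by 3.42 ± 0.22 (0.000759) and lower in proestrus than in diestrus by 2.21 ± 0.20 (0.00174), each in all 8 fits without a library. It was higher in metestrus than in proestrus by 1.71 ± 0.20 (0.00528; 0.0558 without metestrus library 2). Its fall into estrus was 1.21 ± 0.21 (0.0158), which ended without any single proestrus or estrus library (0.0617 to 0.0967).

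Col13a1, a transmembrane chain of cell junctions including the neuromuscular synapse, was scarce but low in both estrus libraries, with 1.64 and 1.79 CPM in proestrus, 0.450 and 0.361 CPM in estrus, 3.88 and 4.66 CPM in metestrus, and 3.19 and 2.02 CPM in diestrus. Col25a1, a chain of neurons and developing muscle, had 0.300 and 0.0516 CPM in estrus, from 6 and 1 counts, and 0.675 to 2.14 CPM elsewhere. Both were called higher in metestrus than in estrus, Col13a1 in all 8 fits without a library and Col25a1 not without estrus library 2 or either metestrus library (edgeR adjusted p 0.0544 to 0.0676). Col17a1, the hemidesmosome collagen that anchors epithelial cells, did the opposite. It had 2.56 and 3.52 CPM in proestrus, 4.35 and 5.83 CPM in estrus, 2.19 and 1.41 CPM in metestrus, and 2.79 and 2.27 CPM in diestrus. It fell by 1.5 ± 0.35 into metestrus (edgeR adjusted p = 0.0176), which ended without any single estrus or metestrus library (0.0512 to 0.118).

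The remaining members include multiplexins, anchoring fibrils and short-chain networks. Col15a1, a multiplexin of the outer basement membrane of muscle and vessels, had 374 and 480 CPM in proestrus, 198 and 81.7 CPM in estrus, 414 and 407 CPM in metestrus, and 703 and 374 CPM in diestrus. Estrus was lowest, and it rose by 1.55 ± 0.46 into metestrus (edgeR adjusted p = 0.0375; 0.0513 to 0.119 without any single proestrus or metestrus library or without estrus library 2). Col15a1 was also called lower in estrus than in diestrus, by 1.95 ± 0.46 (edgeR adjusted p = 0.0264). Its fall into estrus did not pass in edgeR (0.0585), whereas DESeq2 called it (-1.63, adjusted p = 0.000812). Col18a1, the precursor of endostatin, had 353 to 531 CPM outside diestrus and 361 and 890 CPM in diestrus, and passed in no pair by edgeR. Col7a1, which forms the anchoring fibrils under epithelia, had 28.7 and 14.7 CPM in estrus, 78.8 to 137 CPM in proestrus and metestrus, and 25.7 and 162 CPM in diestrus. By edgeR it also passed in no pair, whereas DESeq2 called it higher in metestrus than in estrus (2.37, adjusted p = 0.0403).

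Of the short-chain collagens, Col8a2 fell from 28.1 and 34.1 CPM in proestrus to 12.7 and 15.3 CPM in estrus, by 1.15 ± 0.25 (edgeR adjusted p = 0.0277), which ended without any single proestrus or estrus library (0.0688 to 0.158). Its partner Col8a1 had 3.5 to 9.64 CPM and passed in no pair by edgeR. Col10a1, the collagen of hypertrophic cartilage, had at most 0.893 CPM. It had the largest fitted difference of the pairs metestrus against proestrus (lower) and proestrus against diestrus (higher), and both metestrus libraries together held 1 count, so no fold is given.

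Col26a1, a short secreted collagen first described in testis and ovary, had 3.90 and 5.71 CPM in proestrus, 1.65 and 1.19 CPM in estrus, 24.2 and 18.3 CPM in metestrus, and 1.17 and 66.9 CPM in diestrus. The diestrus values bracket all others. No stage difference passed in edgeR, whereas DESeq2 called Col26a1 higher in metestrus than in estrus (3.94, adjusted p = 0.0279) and lower in estrus than in diestrus (-4.60, 0.0117). Without diestrus library 2, Col26a1 was lower in diestrus than in metestrus, with a log2 fold change of -4.21 (edgeR adjusted p = 0.00468), where the full fit gave 0.68 ± 1.28.

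Among the genes of the machinery that makes collagen molecules, more fell into estrus than rose. The list of genes for modification, folding and export of procollagen, chosen with earlier results of these data known, has 22 members. From proestrus to estrus 11 fell and 1 rose, beside 6.94% and 8.12% of all genes, and into metestrus 15 rose and 1 fell, beside 16.7% and 19.5%. The exception both times was P3h2, a prolyl 3-hydroxylase of basement membrane collagen, named after its values were seen. The median log2 fold change was -0.72 into estrus and 1.05 into metestrus, against 0.007 and -0.046 over all genes. The number that fell was between 4 and 12, and the number that rose into metestrus between 9 and 15, over the fits without a library. Serpinh1, the collagen chaperone HSP47, had 1209 and 1271 CPM in proestrus, 413 and 493 CPM in estrus, 2504 and 1896 CPM in metestrus, and 1867 and 1617 CPM in diestrus. It fell by 1.45 ± 0.18 into estrus (edgeR adjusted p = 0.00714; 0.0583 without estrus library 1) and rose by 2.28 ± 0.19 into metestrus (0.00128, in all 8 fits without a library), with both metestrus values above those of proestrus. Sec23a, a coat protein of the vesicles that carry procollagen out of the endoplasmic reticulum, had 86.5 and 89.8 CPM in proestrus, 43.6 and 45.5 CPM in estrus, 118 and 115 CPM in metestrus, and 89.5 and 85.2 CPM in diestrus. Its fall into estrus of 0.98 ± 0.09 (0.00356) and rise into metestrus of 1.39 ± 0.09 (0.000863) were called in all 8 fits without a library.

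Of the 13 genes that trim propeptides or crosslink fibrils, 5 fell into estrus, beside 6.94% of all genes. None rose into estrus by edgeR (1 at an unadjusted p under 0.05, 1 by DESeq2), beside 8.12% of all genes by edgeR. Into metestrus 4 rose, beside 16.7% of all genes, and 1 fell, beside 19.5%. In the edgeR fits without a library 0 to 7 fell into estrus, or 4 to 8 at an unadjusted p under 0.05. Loxl1, a lysyl oxidase known for elastic fibres, had 221 and 197 CPM in proestrus, 102 and 116 CPM in estrus, 299 and 230 CPM in metestrus, and 215 and 234 CPM in diestrus, and rose by 1.28 ± 0.16 into metestrus (edgeR adjusted p = 0.00302). Lox, the enzyme that crosslinks collagen fibrils, went otherwise. It had 427 and 416 CPM in proestrus, 554 and 506 CPM in estrus, 99.4 and 84.2 CPM in metestrus, and 124 and 62.6 CPM in diestrus. It fell by 2.53 ± 0.31 into metestrus (0.00288), the stage in which fibrillar chains rose. The calls of Loxl1 and Lox into metestrus were made in all 8 fits without a library.

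Genes that bind or cut collagen were read against the same shares of all genes, 8.12% higher and 6.94% lower in estrus, and 16.7% higher and 19.5% lower in metestrus. Of the 10 receptors and uptake genes 9 were tested: 3 rose into estrus and none fell (0 at an unadjusted p under 0.05 and 0 by DESeq2), and 5 fell into metestrus and none rose (1 and 1). Itga2, the alpha chain of a collagen-binding integrin of epithelia and platelets, had 56.0 and 52.0 CPM in proestrus, 169 and 104 CPM in estrus, 22.8 and 26.6 CPM in metestrus, and 12.6 and 10.9 CPM in diestrus. Its rise into estrus of 1.34 ± 0.23 (edgeR adjusted p = 0.0159) ended without proestrus library 1 or 2 or estrus library 1 (highest 0.0985), and its fall into metestrus of 2.47 ± 0.24 (0.00181) was made in all 8 such fits. Ddr2, the receptor kinase for fibrillar collagen, rose from 186 and 176 CPM to 295 and 290 CPM in estrus, by 0.69 ± 0.10 (0.00891), a call that ended without any single proestrus or estrus library (highest 0.0771). The 6 collagenases and gelatinases summed to 832 and 787 CPM in proestrus, 1749 and 1894 CPM in estrus, 955 and 924 CPM in metestrus, and 1129 and 1470 CPM in diestrus. Of the 4 tested, Mmp2, Mmp9 and Mmp14 rose into estrus and none fell by edgeR, unadjusted or by DESeq2 (0 each). The number called was 2 to 4 in the fits without a library. Into metestrus 2 of the 4 fell. Mmp14, which activates Mmp2 and cuts fibrillar collagen at the cell surface, rose from 506 and 518 CPM to 1192 and 1300 CPM, by 1.28 ± 0.21 (0.0131; highest 0.0868, without a proestrus or estrus library).

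**Figure D5:**
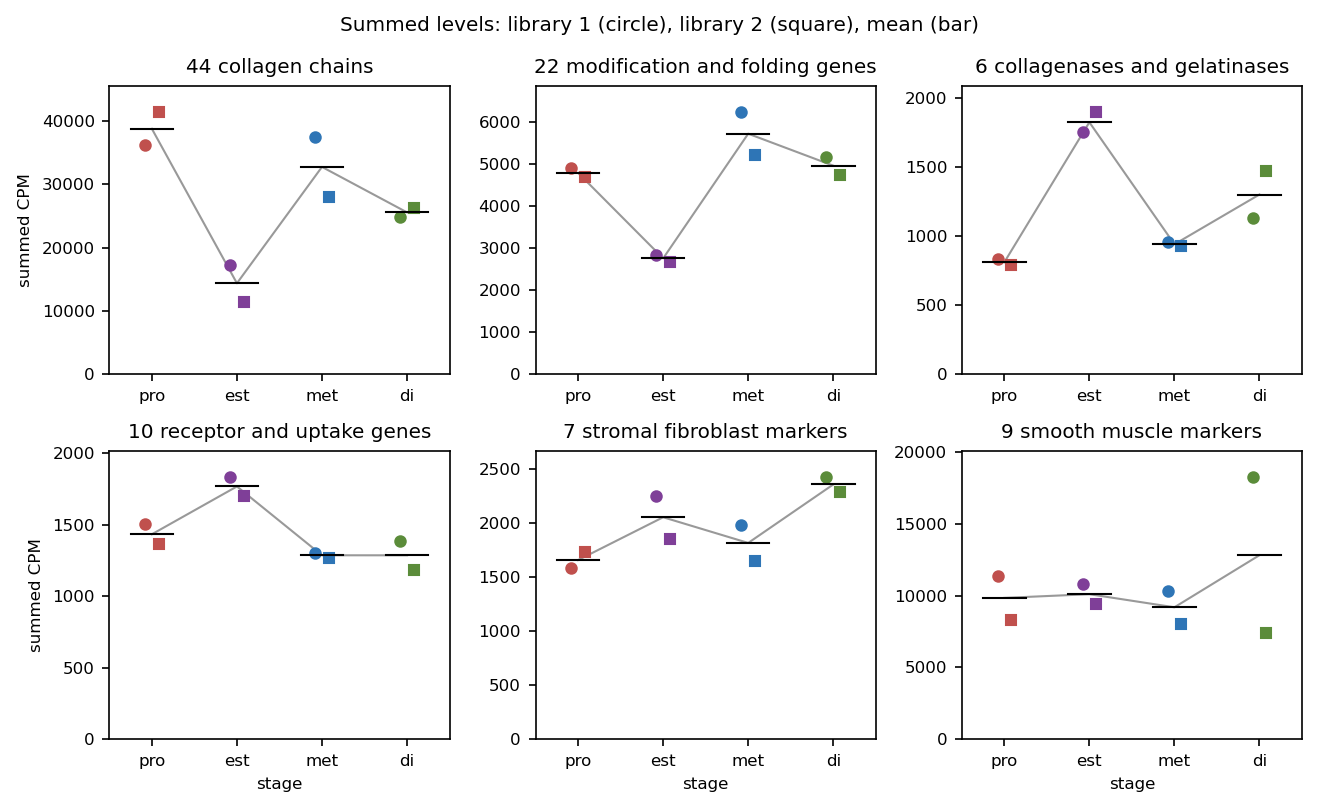
Summed CPM (vertical axes, from 0) of the 44 chains and of 5 other lists by stage, abbreviated as in the plot of CPM by stage, with circles for library 1, squares for library 2 and bars for means. The chains and the modification genes are lowest in both estrus libraries, collagenases and receptors are highest there, and stromal fibroblast markers are not lowest there.

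Other matrix genes were mixed. The same shares of all genes apply: 8.12% higher and 6.94% lower in estrus, and 16.7% higher and 19.5% lower in metestrus. Of 12 fibril-binding proteoglycans and glycoproteins 4 rose and 3 fell into estrus. Thbs2, a matricellular protein that affects fibril shape, rose from 59.6 and 33.7 CPM to 150 and 281 CPM, by 2.21 ± 0.36 (edgeR adjusted p = 0.0143; not called without proestrus library 2 or estrus library 2, highest 0.0804). Of 16 basement membrane partners of collagen IV, 1 rose and none fell into estrus by edgeR (2 at an unadjusted p under 0.05, 1 by DESeq2), and 4 rose and 5 fell into metestrus. Lamb3, a laminin chain of epithelial basement membranes, went from 162 and 166 CPM in estrus to 14.6 and 16.9 CPM in metestrus, a fall by 3.38 ± 0.24 (0.000892, in all 8 fits without a library). Nid1, the linker of laminin and collagen IV, rose from 339 and 255 CPM to 656 and 601 CPM, by 1.08 ± 0.24 (0.0161; not called without estrus library 2 or either metestrus library, highest 0.0908). Of 9 TGF beta ligands, receptors and targets, 3 rose and none fell into estrus by edgeR, unadjusted or by DESeq2 (0 each). Ccn2, a matricellular growth factor known as a TGF beta target, had 118 and 92.3 CPM in estrus and 21.2 to 24.7 CPM in all other libraries. It rose by 2.28 ± 0.16 into estrus (0.00193) and fell by 2.19 ± 0.16 into metestrus (0.000977), both in all 8 fits without a library.

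The summed markers of stromal fibroblasts and of smooth muscle were not lowest in estrus. The 7 stromal fibroblast markers summed to 1583 and 1734 CPM in proestrus, 2252 and 1858 CPM in estrus, 1982 and 1652 CPM in metestrus, and 2427 and 2290 CPM in diestrus, with none at 0. From proestrus to estrus 1 of the 7 rose and 1 fell, beside 8.12% and 6.94% of all genes. From estrus to metestrus 2 rose and 3 fell, beside 16.7% and 19.5%. Against diestrus, 2 were higher and 2 lower in estrus, beside 13.9% and 9.97%. Members of this list thus went both ways, which the sum does not show. The 9 smooth muscle markers summed to 11355 and 8313 CPM in proestrus and 10808 and 9376 CPM in estrus, and none was called between these stages by edgeR (2 higher and 0 lower in estrus at an unadjusted p under 0.05, 1 and 0 by DESeq2). The 6 leukocyte markers were high in estrus, with 469 and 506 CPM against 114 to 184 CPM elsewhere. Of the 6, 3 rose into estrus, beside 8.12% of all genes. Cd3e and Cd79a, which mark T and B cells, stayed at or under 2.16 CPM. The 4 mesothelial markers summed to 69.5 to 86.1 CPM in proestrus and 106 to 204 CPM elsewhere, and the 5 markers of Schwann cells and nerve to 45.1 to 70.4 CPM in proestrus and estrus and 18.6 to 26.8 CPM later. The part of these cell markers in the collagen results was not tested.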

How the data were processed

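Whole-uterus RNA was sequenced in 8 libraries, 2 per stage. Per the labels' protocols, total RNA went into stranded libraries of polyadenylated RNA. The authors deposited raw read counts for each gene, whole numbers without normalisation. The submitters' processing notes name STAR, featureCounts of Subread and the build GRCm38 (mm10). Tool versions, the annotation release, and how multi-mapped reads and strand were treated, were not given in the sources used here, so reads shared by similar chains or by overlapping genes are uncertain.

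Identifiers were matched to GENCODE M21 (52058 of 52308 found). The members and the lists were chosen with earlier results of these data known. The class and list genes were looked up by symbol, and Col21a1 was not analysed here. Counts were fitted with edgeR 4.0.16 in R 4.3.3, with the filterByExpr default by stage (18114 genes tested), TMM factors from 0.8975 to 1.111 and 1 coefficient per stage over all 8 libraries, with 4 residual and 2.698 prior degrees of freedom, and a common biological variation (BCV) of 0.2501. All stages together and the 6 pairs were tested with two-sided quasi-likelihood F tests and Benjamini-Hochberg adjustment over all genes tested. The SE is the size of the log2 fold change divided by the square root of F. Within-library ratios divide counts by the length of the APPRIS principal transcript.

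Full statistics were planned for members with at least 5 CPM in a stage, up to 5 per class by p across stages and the largest called rise and fall of each pair. Further chains are given because every member may be named. From other lists came up to 4 genes by p across stages, and from marker lists the sums. Promoter windows are those of RefSeq on GRCm38.p6. Alternatives were DESeq2 size factors, DESeq2 1.42.0, no filter, a filter of 1 CPM in 2 libraries, the replicate block, only the 4 libraries of a pair, and dropping each library, whereupon the lone library of a stage is assumed to vary like the others. A fit without both diestrus libraries, and all alternatives for the other lists, were added after seeing the data.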

Additional observations from a re-analysis of the deposited data

How the results depend on the processing

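With each library left out in turn, the chains changed across the stages numbered 13 to 34. Into estrus from proestrus 0 to 3 rose and 4 to 24 fell, and into metestrus 9 to 22 rose and 0 to 3 fell. Into diestrus from metestrus 0 to 4 rose and 0 to 4 fell. Higher in proestrus than in diestrus were 1 to 10 and lower 4 to 9, higher in estrus than in diestrus 0 to 2 and lower 8 to 18, and higher in metestrus than in proestrus 0 to 8 and lower 0 to 4. In these fits 238 of the values of single chains dropped out of the calls and 92 entered them. Without estrus library 1, Col4a3 was lower in estrus than in diestrus (-1.01, edgeR adjusted p = 0.0443), where the full fit gave 0.27 and the fit without estrus library 2 gave 0.93. Without diestrus library 2, Col26a1 had -4.21 for diestrus against metestrus (0.00468) and 2.04 for proestrus against diestrus (0.0158). The full fit gave 0.68 and -2.82, and the fit without diestrus library 1 gave 1.64 and -3.81.

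DESeq2 called 2 chains lower in metestrus than in estrus, 4 lower in diestrus than in metestrus and 7 higher in metestrus than in proestrus. Of all genes, in either direction, it called 6610, 948 and 3916 in these pairs, against 6563, 92 and 3067 in the main fit. Without a filter the chains lower in metestrus than in estrus were 2, lower in diestrus than in metestrus 2, and lower in metestrus than in proestrus 4, and with a filter of 1 CPM the last was 1. Of all genes, the fit without a filter called 6343, 451 and 3240 in these pairs, and that of 1 CPM called 3137 in the last. Fits to only the 4 libraries of a pair called 4 lower in metestrus than in estrus, 0 higher and 0 lower in diestrus than in metestrus, 5 higher in proestrus than in diestrus, 0 higher and 8 lower in estrus than in diestrus, and 7 higher and 4 lower in metestrus than in proestrus. Of all genes these fits called 8197, 0, 1130, 1939 and 4769 in those pairs, in that order. The main fit called 6563, 92, 4050, 4317 and 3067. Without both diestrus libraries 24 fell into estrus and 4 into metestrus, and metestrus against proestrus had 8 higher and 4 lower. Of all genes this fit called 4781, 8234 and 5054 in those pairs, against 2727, 6563 and 3067 in the main fit. DESeq2 size factors changed no such count by over 1.5 times. The cause of these differences was not tested.

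No strong deviation was shared by libraries of the same replicate number: the correlations of the number 1 deviations between stages ran from -0.093 to 0.145. A weak pairing, or one limited to some genes, would not show in these correlations. With the replicate block 0 chains were called higher in diestrus than in metestrus and 2 higher in metestrus than in proestrus, and no other count moved by over 1.5 times.

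Depth was not varied, so what it limits was not tested. Scaling by library size alone moved the median of all genes by up to 0.18 on the log2 scale, for metestrus against proestrus, and the median of the chains with it, to 0.19.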
